A study of Mus musculus with 26 samples.

Results

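Gene expression in 11 pineoblastomas (PBs) of Rb/p53-deleted mice, PB1 to PB11, was compared with that in 3 samples of normal cerebellum. These 14 samples were picked by their titles out of the 26 samples of the study, and each was hybridized to its own Mouse Gene 1.0 ST array of Affymetrix. The tumors arose in mice with the WAP-Cre transgene and homozygous floxed Rb and p53 alleles, in which a Cre recombinase driven by the promoter of the milk protein gene Wap is ectopically active in the pineal gland and deletes both genes there. The mice had mixed genetic backgrounds. The labels give neither age nor sex for any sample, and no genotype for the mice that supplied cerebellum. A further Rb/p53-deleted tumor, PB 12, was on another array type and was not used here. The remaining tumors of the study carried a p53 point mutation or Dicer1 deletion, and the study as a whole modelled human PB and looked for drugs that stop it. Genes of photoreceptors, mitosis and tumor classifiers were set aside when the genes with the largest differences were picked. The account below describes lists of other functions in which tumors and cerebellum differed. These lists still hold genes of dividing cells and of photoreceptors.

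The pineal gland is a small endocrine organ whose main cells, the pinealocytes, make melatonin and share much of their gene program with the photoreceptors of the retina. Cerebellum is dominated by granule neurons, together with Purkinje cells, inhibitory interneurons, Bergmann glia and oligodendrocytes. The RB protein holds E2F transcription factors in check before S phase, and p53 activates genes of arrest, repair and cell death after damage. Because the reference is another brain region and not the pineal gland, what belongs to the tumor and what belongs to the tissue cannot be told apart in these differences. In bulk RNA, fewer cells of a type and less RNA per cell cannot be told apart either.

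The labels were checked against cell type markers. Of 16 measured pinealocyte markers, 13 were higher in tumors and 1 was lower, the G protein subunit gene Gng13. The mean level over these markers was 9.96 to 10.42 in tumors and 7.52 to 7.79 in cerebellum. All 10 measured Purkinje cell markers and 13 of 15 granule neuron markers were lower in tumors. The mean over the granule neuron markers was 8.88 to 9.68 in tumors, against 12.50 to 12.51 in cerebellum. Of 9 pituitary markers 1 was higher, and Pomc, the hormone precursor of corticotroph cells, had a difference of -0.05 (adjusted p = 0.645). The deposited levels are log2 values, so that a difference of 1 is a 2-fold change. The spread of values was not the same on all arrays. The interquartile range of an array was 2.57 to 2.87 in PB1 to PB10, but 3.24 in PB11 and 3.17 to 3.25 in cerebellum, and the 75th percentile was 9.31 to 9.46 in PB1 to PB10 and 9.76 to 9.78 in PB11 and cerebellum. PB11 also had the highest tumor mean over the markers of pinealocytes, granule neurons, Purkinje cells, astrocytes, oligodendrocytes, microglia, endothelial cells, pericytes, fibroblasts and choroid plexus. It had the lowest tumor mean over pituitary and erythroid markers. For markers of cerebellar interneurons, oligodendrocyte precursors and T, NK and B cells it lay within the range of the other tumors. Results were therefore also computed without PB11, after quantile normalization of the 14 arrays, and for PB11 alone against cerebellum. Values for PB11 alone come from a fit of all 14 arrays with a block for the arrays of wider spread. The block leaves PB11 as the only tumor against cerebellum, and this tumor is assumed to vary like the other arrays. Calls and counts given below for PB11 alone rest on 1 tumor and on this assumption, and are not a separate test.

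A gene is called higher or lower here when its adjusted p in limma was under 0.01 over the 19939 genes tested. By this rule 3936 genes (19.7%) were higher and 6357 (31.9%) were lower in Rb/p53-deleted PBs, and 1482 (7.43%) and 2911 (14.6%) of these differed by at least 1. Groups did not overlap for 17.9% of all genes on the higher side and for 27.6% on the lower side. The balance of directions moved with the scaling and with the tumors used. After quantile normalization 4985 genes (25.0%) were higher and 5512 (27.6%) lower, 8.83% and 11.1% of all by at least 1. Without PB11, 4898 (24.6%) were higher and 7329 (36.8%) lower, 7.42% and 15.5% by at least 1. PB11 alone against cerebellum gave 3381 (17.0%) higher and 3183 (16.0%) lower, 9.62% and 9.74% by at least 1. On the deposited values the median difference was 0.08 in the 4985 genes of lowest mean level and -0.23 in the 4985 of highest mean level, and after quantile normalization these medians were -0.01 and 0.14.

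Of the genes that the mice carry as altered alleles, Rb1 was at 10.20 to 10.71 in tumors, with a median of 10.60, and at 10.57, 10.54 and 10.65 in cerebellum. The groups overlapped, and the difference of -0.07 was not called (SE 0.11, adjusted p = 0.569), although it was 0.33 after quantile normalization. Probes of this array type lie along the whole gene, so this value does not check the deletion of part of it. The p53 gene Trp53 was not analysed here. Wap, whose promoter drives Cre, did not stand above cerebellum in tumors, with a difference of -0.86 (SE 0.19, adjusted p = 0.00102, and -0.44 without cerebellum 2) and overlapping groups.

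The RB relative gene Rbl1 and 5 of 8 genes of G1 cyclins and kinases were higher in tumors, and the other relative gene, Rbl2, was lower. Of 17 measured pocket protein, CDK inhibitor and G1 genes, 10 were higher and 2 lower, against 19.7% and 31.9% of all genes, with a median difference of 0.91. Rbl1, which encodes the RB relative p107, was between 10.30 and 11.37 in tumors, with a median of 10.62, and at 7.83, 7.95 and 7.90 in cerebellum. Every tumor was above every cerebellum sample, by 2.82 on average (SE 0.16, adjusted p = 9.8e-11). Rbl2, which encodes p130, had a difference of -0.42 that was called but lost its call after quantile normalization (-0.10), for PB11 alone (-0.04) and without any 1 of the 3 cerebellum samples. Cdk2, the kinase that drives entry into S phase, ranged from 11.06 to 11.97 in tumors around a median of 11.14, and was at 7.58, 7.69 and 7.52 in cerebellum. Its groups lay far apart (difference 3.65, SE 0.15, adjusted p = 2.4e-12). Its partners Ccne2 (2.09) and Ccne1 (1.67), the E cyclins, were higher, and Ccnd1, the D cyclin that inactivates RB, was lower (-1.16, SE 0.16), a call that was not made for PB11 alone (-0.55). Of 6 CDK inhibitors 4 were higher. Cdkn2a, which encodes INK4A and ARF, was at 9.52, 9.86 and 10.07 in the lowest, median and highest tumor and at 7.24, 7.55 and 7.22 in cerebellum, so every tumor was higher (2.49, SE 0.12), and Cdkn2c, which encodes INK4C, was higher by 2.57.

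Short stretches of promoters are printed to show a motif that these genes and others described below carry. E2F factors bind sites like TTTCCCGC, TTTGGCGC, TTTCGCGC and TTTGCCGC, and these letters were searched on both strands, without overlap between them, from 250 bases before to 50 bases after each RefSeq transcription start (GRCm38.p6). A match was found in 2.26% of all 32851 promoters and in 2.99% of the 19176 promoters of genes tested. It was found in 7.21% of 1442 promoters of genes called higher by at least 1. A match lay in 2.15% of 3123 promoters of genes called lower by at least 1 and in 2.27% of promoters of genes not called. Among the lists, it was found in 3 of 17 promoters of the pocket protein and CDK inhibitor list, in 6 of 48 of the DNA methylation and Polycomb list, in 9 of 57 of the repair list and in 3 of 26 of the nuclear lamina list. The stretches below run 5′ to 3′ on the strand of the gene, with the match in capitals, and cover chr2:157204535-157204642 for Rbl1 and chr10:128705134-128705241 for Cdk2 (both minus strand), chr19:38930878-38930985 for Hells and chr17:56304078-56304185 for Uhrf1 (both plus strand), and chr10:91170688-91170795 for Tmpo (minus strand). A match is a description of the letters and not a measured binding site.
Rbl1: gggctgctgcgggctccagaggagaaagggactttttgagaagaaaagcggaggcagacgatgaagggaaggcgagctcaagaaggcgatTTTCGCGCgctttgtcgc
Cdk2: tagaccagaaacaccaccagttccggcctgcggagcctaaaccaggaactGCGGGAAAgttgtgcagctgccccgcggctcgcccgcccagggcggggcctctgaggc
Hells: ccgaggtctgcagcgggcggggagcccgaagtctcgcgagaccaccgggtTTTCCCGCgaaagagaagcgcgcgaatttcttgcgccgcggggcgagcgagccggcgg
Uhrf1: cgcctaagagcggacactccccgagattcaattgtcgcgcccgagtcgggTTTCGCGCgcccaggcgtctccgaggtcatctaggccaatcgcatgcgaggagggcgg
Tmpo: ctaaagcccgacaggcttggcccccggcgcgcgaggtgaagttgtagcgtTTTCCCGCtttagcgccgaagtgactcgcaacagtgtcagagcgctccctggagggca

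Genes that p53 activates did not move together, although more were higher and fewer lower than among all genes. Of 22 measured target genes 8 were higher and 4 lower, with a median difference of 0.14. With 2 p53 regulators included, 33.3% of 24 genes were higher and 16.7% lower, against 19.7% and 31.9% of all genes. Eda2r, a death receptor of the TNF receptor family, was at 7.90, 8.61 and 9.35 in the lowest, median and highest tumor and at 5.99, 6.10 and 6.03 in cerebellum, so that all tumors were higher (2.65, SE 0.23, adjusted p = 4.4e-08). The antiproliferative gene Btg2 was higher by 1.87. Zmat3, an RNA-binding p53 target, was at 7.44, 7.77 and 8.20 in tumors and 9.56, 9.25 and 9.56 in cerebellum, and all tumors were lower (-1.69, SE 0.11, adjusted p = 1.4e-09). The p53 inhibitors Mdm2 (0.18, adjusted p = 0.197) and Mdm4 (0.11, adjusted p = 0.525) were not called, although both were after quantile normalization (0.51 and 0.49) and Mdm4 was for PB11 alone (0.77).

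Genes that differed most from cerebellum outside the set-aside groups had few functions in common on the higher side, and belonged mainly to neurons or to secretory epithelia on the lower side. Tc2n, which encodes a protein with C2 domains, had the largest difference upward. It was at 11.37, 12.64 and 13.07 in the lowest, median and highest tumor and at 7.20, 7.37 and 5.76 in cerebellum, and every tumor was far above (5.63, SE 0.39, adjusted p = 1.9e-09). The carbonic anhydrase gene Car3, known from muscle and fat, was at 10.09 in PB4 and up to 13.05 in PB2, against 6.92 to 7.19 in cerebellum (4.88). Slc39a4, which encodes the zinc importer ZIP4, was higher by 4.34, the transcriptional repressor gene Ripply3 by 4.32, Brip1, a helicase that works with BRCA1, by 4.14, and Fam111a, a protease of replicating cells, by 4.61. Genes best known from the germ line were among the leading genes too. Stag3, a cohesin subunit of meiotic chromosomes, was at 11.55, 11.84 and 12.21 in tumors and at 7.48, 7.40 and 7.28 in cerebellum. All tumors were far above cerebellum (4.47). Obox6, an oocyte homeobox gene, was higher by 5.05 (2.76 as the mean of its transcript clusters) and Dmrtb1, a transcription factor of male germ cells, by 3.98.

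**Figure D1:**
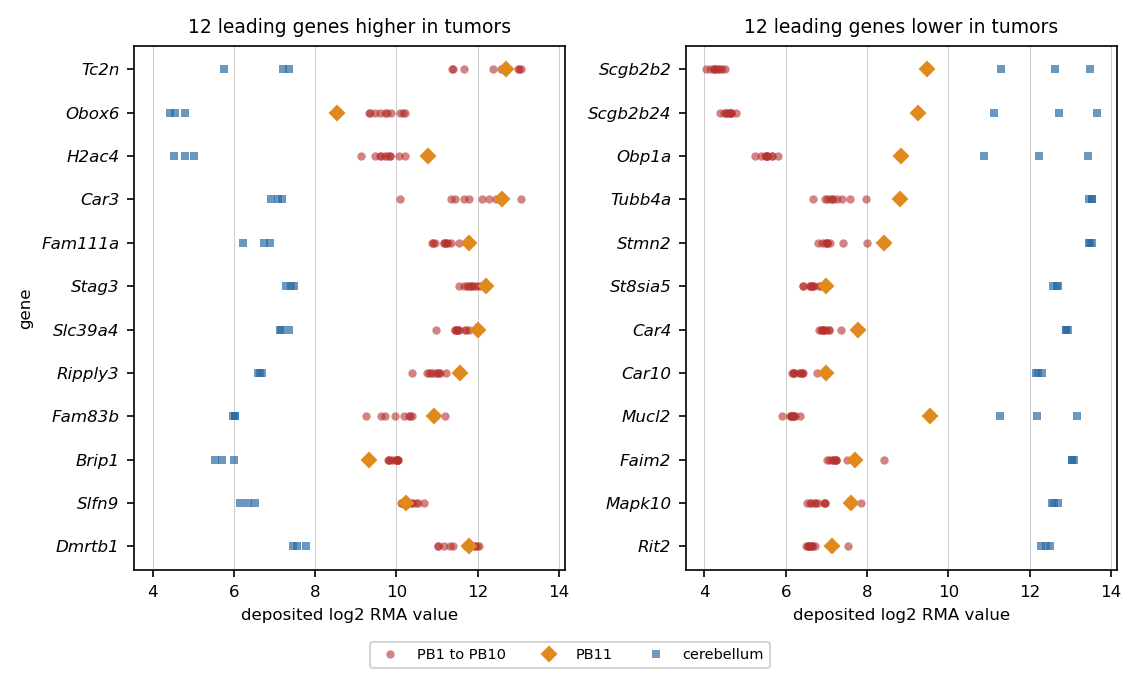
Deposited log2 RMA value (horizontal axis) of the 12 leading genes higher and the 12 lower in tumors, with 1 point per array for PB1 to PB10, PB11 and the 3 cerebellum samples. Groups do not overlap for any gene shown, and for Scgb2b2, Scgb2b24, Obp1a and Mucl2 PB11 lies between the other tumors and the cerebellum samples, which are widely spaced for these genes.

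On the lower side, Stmn2, a microtubule regulator of growing axons, was at 6.79, 7.02 and 8.46 in tumors and at 13.47, 13.46 and 13.53 in cerebellum. The gap between the groups was wide in every tumor (-6.12). Tubb4a, a tubulin of neurons and oligodendrocytes (-6.14), St8sia5, a sialyltransferase of gangliosides (-5.98), Car10, a relative of carbonic anhydrases that binds neurexins (-5.83), Faim2, an inhibitor of Fas-mediated death in neurons (-5.70), Mapk10, the neuronal JNK kinase (-5.68, and -3.64 as the mean of its transcript clusters), and Rit2, a small GTPase of neurons (-5.66), were lower by similar amounts. Genes of exocrine glands were also among them. Scgb2b2, a secretoglobin, was at 4.03 to 4.51 in PB1 to PB10, at 9.46 in PB11, and at 12.63, 13.48 and 11.29 in cerebellum. PB11 stood apart from the other tumors, and cerebellum samples differed from each other by more than they did for neuronal genes. The difference was -7.71 over all tumors and -3.00 for PB11 alone. The related Scgb2b24, the odorant-binding protein gene Obp1a and the mucin-like gene Mucl2 had the same order of samples, with cerebellum 2 highest, cerebellum 3 lowest of the cerebellum samples, and PB11 at 8.83 to 9.56. What sets these samples apart for them was not tested.

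Lists of genes by function were then compared with the background of all genes. Counts on deposited values are to be read against 19.7% higher and 31.9% lower among all genes. After quantile normalization these shares were 25.0% and 27.6%, and without PB11 24.6% and 36.8%. Ordered by the share higher less the share lower, they ran from the repair list, in which 65.6% of members were higher, to the calcium list, in which 84.1% were lower.

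**Figure D2:**
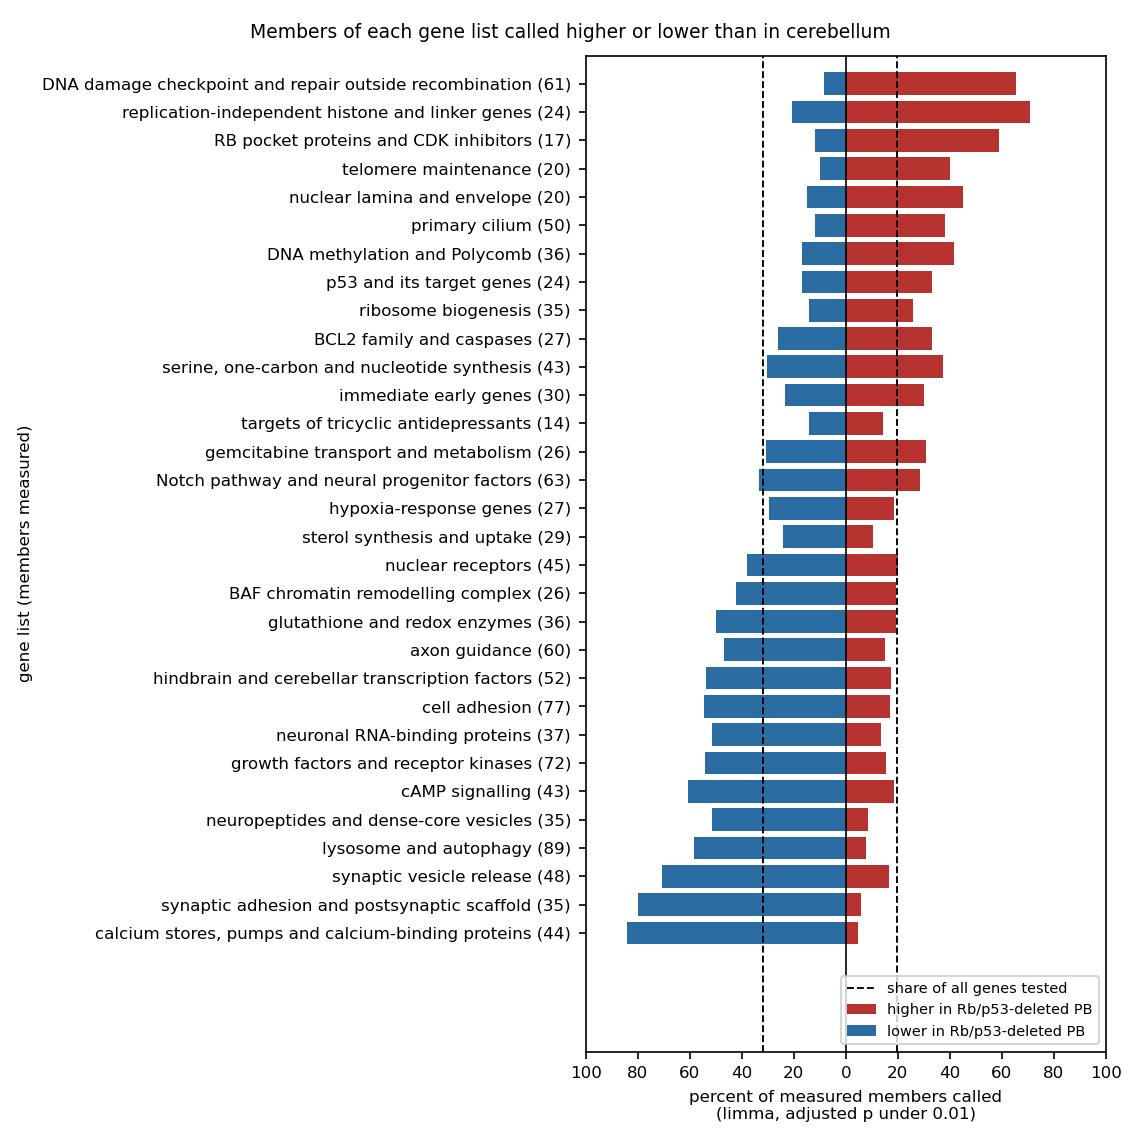
Percent of the measured members of 31 gene lists that were called higher (to the right) or lower (to the left) in 11 Rb/p53-deleted PBs than in 3 cerebellum samples, with the number of members in brackets and dashed lines at 19.7% and 31.9%, the shares among all genes tested. Repair, histone variant and RB lists lie at the top, and calcium, postsynaptic and vesicle release lists at the bottom.

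Transmitter release genes were lower as a group, with the exception of those of the ribbon synapse. A ribbon synapse is the release site of photoreceptors, bipolar cells and hair cells, and pinealocytes contain synaptic ribbons as well. All 16 measured genes of vesicle proteins were lower, with a median difference of -2.58, and so were 12 of 14 genes of the fusion machinery (median -1.63). Of 8 genes of ribbon synapses or retinal isoforms, 7 were higher and 1 was lower, with a median of 2.07. These counts were 14, 11, and 6 and 1 for PB11 alone against cerebellum.

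Among vesicle genes, Syn2, which encodes the vesicle tether synapsin II, was at 7.89, 8.10 and 8.58 in the lowest, median and highest tumor and at 12.11, 12.07 and 12.07 in cerebellum. All tumors were lower (-3.90, SE 0.14, adjusted p = 3.2e-13). The vesicle GTPase gene Rab3c (-4.64) and the synaptotagmin gene Syt4 (-3.94) were lower by similar amounts. Synaptophysin, the vesicle protein by which neuronal tumors are often diagnosed, was an exception in size. Its gene Syp was at 11.74, 11.87 and 12.15 in tumors and 12.60, 12.51 and 12.50 in cerebellum, high in both groups and lower in tumors by 0.65 (SE 0.08), which was not called for PB11 alone (-0.39). Rims1, a scaffold of the active zone, was at 6.89, 7.01 and 7.36 in tumors, against 11.50, 11.54 and 11.49 in cerebellum, with no tumor near cerebellum (-4.46, SE 0.10, adjusted p = 1.4e-15). Rph3a, an effector of Rab3, was lower by 4.12 and Unc13c, a priming factor of cerebellar granule cells, was lower by 3.35. The SNARE gene Snap25 remained abundant, at 12.33 to 13.36 in tumors and 13.87 to 13.94 in cerebellum (-1.25).

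In contrast, complexins of the ribbon type were higher in every tumor. Cplx4 was at 10.34, 10.57 and 11.15 in the lowest, median and highest tumor and at 5.72, 5.75 and 5.69 in cerebellum. This was the largest difference among the 8 ribbon or retinal genes (4.91, SE 0.15, adjusted p = 4.1e-14). Cplx3 was at 10.35, 10.53 and 10.80 in tumors and at 7.23, 6.97 and 6.92 in cerebellum, again without overlap (3.51, SE 0.10, adjusted p = 1.5e-14). Complexins of conventional synapses were lower, with Cplx1 at 8.92 to 11.02 in tumors and 12.77 to 12.85 in cerebellum, and Cplx2 at 8.69 to 9.82 in tumors and 10.49 to 10.58 in cerebellum. Cacna1f, the pore of the calcium channel of photoreceptor terminals, was higher by 3.93 (SE 0.12), and its accessory subunit gene Cacna2d4 by 1.80 (1.11 and not called for PB11 alone). Unc13b, a priming factor (2.35), Stx3, the syntaxin of ribbon synapses (1.27), and Ctbp2, whose gene also makes the ribbon protein RIBEYE (0.73), were higher, although the array does not separate RIBEYE from the transcriptional repressor. Rims2 alone among these 8 genes was lower (-1.22, SE 0.11).

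**Figure D3:**
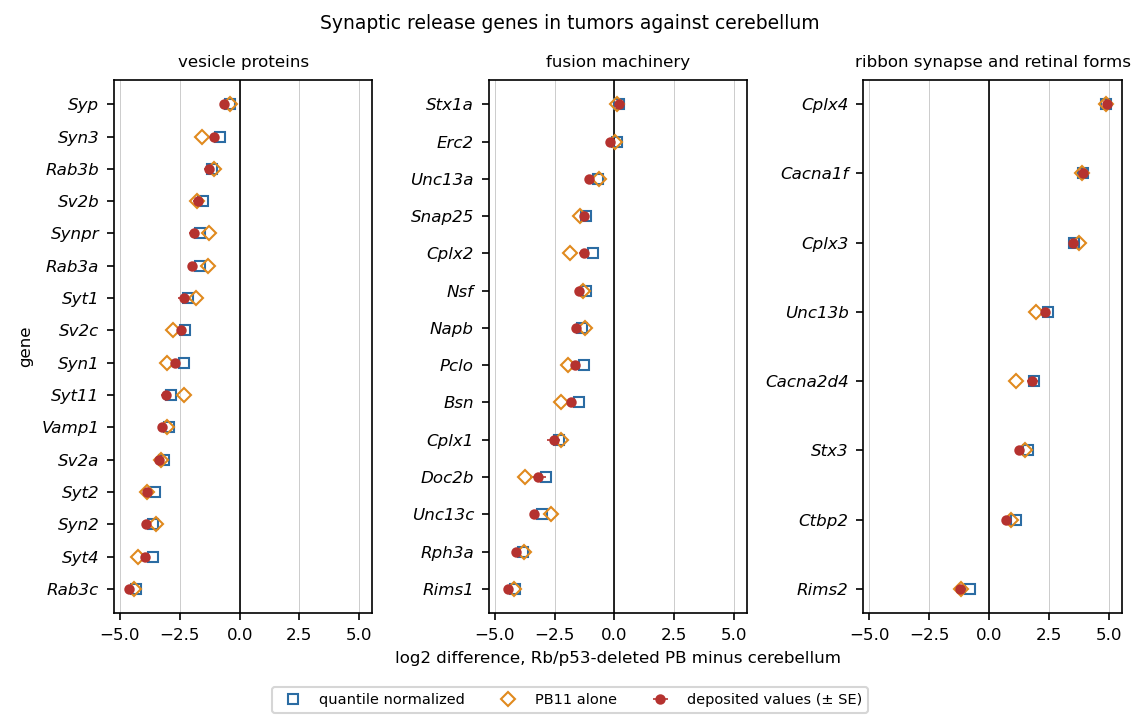
Log2 difference between Rb/p53-deleted PB and cerebellum (horizontal axis) for 16 vesicle genes, 14 fusion genes and 8 ribbon or retinal genes, on deposited values with SE, after quantile normalization, and for PB11 alone. Vesicle genes lie left of 0, from -0.65 for Syp to -4.64 for Rab3c, and 7 of 8 ribbon genes lie right of it under all 3 ways of comparison.

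On the receiving side of the synapse, 28 of 35 genes of adhesion and scaffold proteins were lower and 2 were higher (median -1.41). Lgi1, a secreted ligand that holds synapses together across the cleft, was at 5.08, 5.80 and 6.49 in tumors and at 12.14, 12.05 and 12.23 in cerebellum. All tumors fell far below (-6.34, SE 0.29). Cbln3, a partner of cerebellin made by granule neurons (-6.03), Lrrtm3, a neurexin ligand (-5.21), and Camk2a, the kinase of plasticity (-3.76), were lower. Cadm1, an adhesion molecule (1.36, but 0.76 and not called for PB11 alone), and the scaffold gene Homer2 (0.93) were the 2 members that were higher. Of 10 genes of transmitter synthesis and transport 5 were lower and 1 was higher. The GABA-synthesizing enzyme genes Gad1, at 7.13 to 7.97 in tumors and 12.48 to 12.61 in cerebellum (-5.12), and Gad2 (-4.17) and the glycine transporter gene Slc6a5 (-3.02) led the lower ones, all of them markers of inhibitory neurons.

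Genes of dense-core vesicles followed those of synaptic vesicles. Of 14 granins and peptide-processing genes 13 were lower and none was higher (median -2.36). Pcsk1n, which encodes the convertase inhibitor proSAAS, was at 8.86, 9.19 and 9.97 in tumors and 13.31, 13.20 and 13.29 in cerebellum, with a wide gap in all tumors (-3.99, SE 0.19). Carboxypeptidase E, Cpe, was lower by 3.34 and Cadps, a factor of dense-core vesicle release, was lower by 3.03. Of 21 neuropeptide genes 3 were higher and 5 lower, and 13 were not called, against 19.7% higher and 31.9% lower among all genes. Proenkephalin, Penk, was at 7.76 to 9.32 in tumors and 12.85 to 12.94 in cerebellum (-4.52), and Cck (-3.68) and Npy (-2.96) were lower too.

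Calcium handling had the largest share of lower genes of all 31 lists. Of 44 measured genes 37 were lower and 2 higher, with a median of -1.46, and 24 were lower for PB11 alone. Of 21 calcium-binding proteins and kinases 20 were lower (median -2.35). Calb2, which encodes calretinin of granule neurons, was at 6.70, 7.20 and 9.54 in the lowest, median and highest tumor and at 12.99, 12.96 and 12.92 in cerebellum. The highest tumor was PB11, and all tumors lay below cerebellum. The difference was -5.46 (SE 0.43), and -3.42 for PB11 alone. Atp2b2, a calcium pump of the plasma membrane, was at 9.01, 9.21 and 9.40 in tumors and at 12.77, 12.69 and 12.76 in cerebellum, and lower in every tumor (-3.51, SE 0.09, adjusted p = 6.8e-15). The calcium sensor gene Vsnl1 (-5.09), the store pump gene Atp2a3 of Purkinje cells (-3.78) and the store-operated channel gene Orai2 (-2.27) were lower. Slc24a4, a sodium, calcium and potassium exchanger, was higher by 1.28.

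Cyclic AMP is the messenger by which noradrenaline drives melatonin synthesis in the pineal gland. Of 43 genes of cAMP signalling 8 were higher and 26 lower (median -0.81), and 15 were lower for PB11 alone. The adenylyl cyclases changed in kind. Adcy1, the calcium-stimulated cyclase of neurons, was at 8.08, 8.43 and 9.02 in tumors and 12.65, 12.63 and 12.60 in cerebellum, lower in all tumors (-4.16, SE 0.15). Adcy2 was at 10.98, 11.64 and 11.81 in tumors and 9.79, 9.73 and 9.82 in cerebellum, higher in all tumors (1.69, SE 0.17). The cAMP-degrading enzymes Pde8b, at 10.84 to 11.71 in tumors and 8.99 to 9.16 in cerebellum (2.05), and Pde8a (1.80) were higher, and Pde10a (-2.41) was lower. Gnal, the stimulatory G protein of striatal and olfactory neurons, was lower by 4.86. Adra1b, an adrenergic receptor of pinealocytes, was higher by 1.52.

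Genes of neuronal splicing factors were mostly lower. Of 18 neuronal splicing factors 12 were lower and 2 higher (median -1.18). Rbfox1 was at 7.11, 7.33 and 8.04 in tumors and 12.05, 12.12 and 12.11 in cerebellum, and Rbfox3, the gene of the neuronal antigen NeuN, at 8.09, 8.53 and 9.44 in tumors and 12.88, 12.87 and 12.79 in cerebellum. Both were lower in every tumor (-4.69, SE 0.15, and -4.27, SE 0.21). Rbfox2 (-2.69) and the neuronal Hu protein genes Elavl3 (-3.85) and Elavl4 (-2.87) were lower as well. Mbnl3, a muscleblind family member of proliferating cells, was at 10.25, 10.63 and 11.10 in tumors and 6.74, 7.32 and 6.26 in cerebellum, higher in every tumor (3.83, SE 0.18). Ptbp1, which represses neuronal exons in progenitors, was higher by 1.07 (SE 0.08, adjusted p = 6.5e-09) and Msi1, a translation regulator of neural stem cells, by 1.59. On the deposited values Ptbp1 was the only 1 of 3 progenitor splicing repressors that was called, whereas all 3 were higher after quantile normalization and for PB11 alone. Celf3 was the other neuronal splicing factor that was higher (1.27).

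The neuronal subunits of the BAF chromatin remodelling complex were lower. Neurons exchange ACTL6A for ACTL6B and the progenitor PHD finger subunits for DPF1 and DPF3. All 4 genes of neuronal subunits were lower (median -1.57). Of 4 genes of progenitor subunits 1 was higher, but 3 were after quantile normalization. Without PB11 2 of these 4 were higher and 1 was lower, and for PB11 alone their median difference was 0.76. Actl6b was at 8.31, 8.61 and 9.27 in tumors and 10.77, 10.63 and 10.60 in cerebellum, and Actl6a at 11.42, 11.52 and 11.97 in tumors and 10.21, 10.10 and 10.17 in cerebellum. The pair moved in opposite directions in every tumor (-1.95, SE 0.16, and 1.45, SE 0.11). Dpf3 was lower by 1.74 and Dpf1 was lower by 1.40. Over all 26 BAF genes the balance was 5 higher and 11 lower, but 10 higher and 7 lower after quantile normalization.

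Several genes of DNA methylation and Polycomb complexes were higher. Of 12 genes of DNA methylation 7 were higher and 1 lower, and of 11 genes of Polycomb repressive complex 2 (PRC2) 5 were higher and 2 lower. Of 13 genes of Polycomb repressive complex 1 (PRC1) 3 were higher and 3 lower (median 0.01). The shares among all genes were 19.7% and 31.9%. Uhrf1, which brings DNMT1 to newly replicated DNA, was at 10.28, 10.57 and 10.72 in tumors and 7.40, 6.94 and 6.97 in cerebellum, higher in all tumors (3.43, SE 0.11, adjusted p = 8.3e-14). Hells, a helicase needed for DNA methylation, was at 9.89, 10.19 and 10.80 in tumors and 6.56, 6.90 and 6.85 in cerebellum (3.46, SE 0.14). Both are among the promoters printed above, and the maintenance methylase gene Dnmt1 was higher by 1.24. The 2 catalytic subunits of PRC2 differed in direction. Ezh2, the form of dividing cells, was at 12.15 to 12.33 in tumors and 10.83 in each cerebellum sample (1.41, SE 0.06), and Ezh1, the form of resting cells, was at 9.25 to 10.02 in tumors and 10.93 to 11.03 in cerebellum (-1.32, SE 0.13). In PRC1, Cbx2 was higher by 1.16 and Cbx7 was lower by 0.83, a call that PB11 alone did not give (-0.41). Over all 36 genes of both systems 15 were higher, and 24 after quantile normalization.

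Of 24 genes of histone variants, histone chaperones and HMG proteins 17 were higher and 5 lower (median 0.80). Hmgb2, an HMG box protein of dividing cells, was at 11.52, 11.73 and 12.57 in tumors and 7.91, 8.49 and 7.97 in cerebellum, higher in all tumors (3.72, SE 0.19). Cenpa, the histone of centromeres, was higher by 3.07 and Hmgn5 by 2.74. Neuronal members of the nucleosome assembly protein family were lower. Nap1l2 was at 5.82, 6.08 and 6.84 in tumors and 10.86, 10.83 and 11.18 in cerebellum (-4.76, SE 0.17), and Nap1l5 was lower by 4.55. Of 20 genes of the nuclear lamina and envelope 9 were higher and 3 lower. Tmpo, which encodes the lamina-associated LAP2 proteins, was at 11.34, 11.52 and 12.03 in tumors and 9.24, 9.51 and 9.46 in cerebellum (2.16, SE 0.12), and the lamin B receptor gene Lbr was higher by 2.00. The nesprins, which tie nucleus to cytoskeleton, differed from each other. Syne1 was at 7.37 to 7.86 in tumors and 11.10 to 11.29 in cerebellum (-3.53, SE 0.09), whereas Syne2, which is needed for nuclear migration in photoreceptors, was at 9.71 to 10.41 in tumors and 8.11 to 8.25 in cerebellum (2.01, SE 0.14).

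DNA damage checkpoint and repair genes, without the homologous recombination genes, were higher in 40 of 61 cases and lower in 5 (median 0.53). Without PB11 41 were higher and 10 lower, and for PB11 alone the median difference was 0.91. Of 20 checkpoint genes 15 were higher and none lower, and without PB11 15 were higher and 1 lower. Chek1, the kinase that halts cells with stalled forks, was at 10.42, 10.69 and 11.21 in tumors and at 6.87, 6.82 and 6.84 in cerebellum, with all tumors higher (3.84, SE 0.12, adjusted p = 9.9e-14). The phosphatase gene Cdc25c that CHK1 restrains was higher by 3.24. Of 18 base excision repair genes 15 were higher and 1 lower. Neil3, a glycosylase of proliferating cells, was at 10.25, 10.73 and 11.36 in tumors and at 6.84, 6.84 and 6.52 in cerebellum (3.98, SE 0.17), and the ligase gene Lig1 was higher by 2.84. In mismatch repair 4 of 7 were higher, led by the nuclease gene Exo1 (2.90). End joining and nucleotide excision repair were mixed, with 6 of 16 higher and 4 lower. Polq, the polymerase of microhomology-mediated joining, was higher by 2.06, and the excision nuclease subunit gene Ercc4 (-1.24) and the damage sensor gene Xpa (-1.07) were lower, the latter without a call for PB11 alone (-0.50).

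Counts of telomere and ribosome genes moved with quantile normalization. Of 20 telomere genes 8 were higher and 2 lower on deposited values, 13 and 2 after quantile normalization and 9 and 4 without PB11. The median difference was 0.30 on deposited values and 0.75 for PB11 alone. Stn1, a subunit of the CST complex that fills in telomere ends, was at 9.40, 9.89 and 10.71 in tumors and 8.36, 8.35 and 8.33 in cerebellum, with no overlap (1.55, SE 0.17, adjusted p = 6.9e-07, and 2.37 for PB11 alone), and the chromatin remodeller gene Atrx was higher by 1.18 (0.51 for PB11 alone). Of 35 ribosome biogenesis genes 9 were higher and 5 lower, and 19 and 3 after quantile normalization. Nop58 (1.32) and Fbl (0.99), which encode proteins of the RNA methylation complex of the nucleolus, were higher.

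Most genes of pyrimidine synthesis were higher. Of 12 pyrimidine genes 8 were higher and 1 lower (median 0.61), and of 14 purine genes 5 were higher and 4 lower, but 8 and none for PB11 alone. Tyms, thymidylate synthase, was at 10.82, 11.16 and 11.40 in tumors and at 7.84, 7.96 and 7.70 in cerebellum, higher in every tumor (3.32, SE 0.10, adjusted p = 8.3e-14). The thymidine kinase gene Tk1 was higher by 2.46, Cad, which starts pyrimidine synthesis, by 1.09, and the IMP dehydrogenase gene Impdh1 of the purine branch, an abundant form in photoreceptors, by 1.53. Of 17 serine and one-carbon genes 3 were higher and 8 lower. Shmt1 (1.84) and Mthfd2 (1.64), both folate enzymes, were higher, and Aldh1l1, an astrocyte marker (-3.59), and Gldc, of the glycine cleavage system (-2.21, but -1.55 and not called for PB11 alone), were lower.

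Gemcitabine is a deoxycytidine analog that needs uptake and phosphorylation before it blocks ribonucleotide reductase and DNA synthesis, and the study treated PB cells with it. Of 26 genes of its transport, activation, inactivation and targets 8 were higher and 8 lower, and 10 and 2 for PB11 alone. Targets were higher in 3 of 4 cases. The ribonucleotide reductase subunit gene Rrm1 was at 12.04, 12.21 and 12.69 in tumors and at 10.16, 10.11 and 10.26 in cerebellum (2.07, SE 0.10, adjusted p = 2.4e-11). Dck, which encodes the kinase of the first activating step, was at 9.97, 10.16 and 11.43 in tumors and 9.02, 9.03 and 9.27 in cerebellum, higher in all tumors (1.17, SE 0.22, adjusted p = 0.000208), and most of all in PB11 (2.32). Of the 9 activating kinase genes 2 were higher and 4 lower, but 3 and none for PB11 alone. Lower were Cmpk1 (-0.80), whose product adds the next phosphate, Dguok (-0.83), Nme3 (-1.25) and Nme1 (-0.95, but 0.26 for PB11 alone). Deaminases differed in direction, with Dctd higher by 1.36 and Cda lower (-0.54). The equilibrative transporter gene Slc29a1 had a difference of 0.26 (SE 0.11, adjusted p = 0.0566), with overlapping groups, but was called after quantile normalization (0.63) and for PB11 alone (0.70).

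Nortriptyline, a tricyclic antidepressant that the study tested on PB, acts in nerve cells on monoamine transporters and on several receptors. In the study the reuptake inhibitor venlafaxine did not suppress PB cells, whereas astemizole, which does not block reuptake, did. The paper proposes that nortriptyline acts on PB cells as a cationic amphiphilic drug, a kind that interferes with lysosomes. The transporter genes lay below or near the median of the arrays in both groups. Slc6a2, the noradrenaline transporter, was at 7.16, 7.62 and 8.08 in tumors and 7.11, 7.21 and 7.09 in cerebellum (0.49, SE 0.16, adjusted p = 0.0145). Slc6a4, the serotonin transporter, was at 6.62, 6.81 and 6.99 in tumors and 7.07, 7.11 and 6.91 in cerebellum (-0.23, SE 0.08, adjusted p = 0.0184). Neither was called and both overlapped, and the median of an array was 7.90 to 8.01. Slc6a2 passed without PB3 or without PB11 (0.54 each), and Slc6a4 passed after quantile normalization (-0.30) or without PB10 (-0.25). Of 11 receptor genes 2 were higher and 2 lower. Adra1b, at 9.19 to 10.20 in tumors and 8.16 to 8.24 in cerebellum, was higher by 1.52 (SE 0.17), and the muscarinic receptor gene Chrm3, at 8.82, 9.79 and 11.58 in tumors and 7.55, 7.55 and 7.41 in cerebellum, by 2.51 (SE 0.35, adjusted p = 1.2e-05, and 4.08 for PB11 alone). Another muscarinic receptor gene, Chrm2 (-1.30, SE 0.19), and the histamine receptor gene Hrh1 (-0.38, SE 0.08) were lower.

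Lysosome and autophagy genes, the compartment in the title of the study, were lower on the deposited values, and less so after quantile normalization. The median difference was smallest in size for PB11 alone, a single tumor for which sample and scaling cannot be told apart. Of 89 measured genes 52 were lower and 7 higher, with a median difference of -0.61. After quantile normalization 40 were lower and 16 higher (median -0.23), and for PB11 alone 16 were lower and 8 higher (median -0.07). Without PB11 the counts were 57 and 9. The 4 proteins that the study followed were among the lower ones. Sqstm1, which encodes the autophagy receptor p62, was at 11.06, 11.23 and 12.14 in the lowest, median and highest tumor and at 12.62, 12.51 and 12.58 in cerebellum. Ctsb, cathepsin B, was at 11.22, 11.59 and 12.30 in tumors and at 12.63, 12.60 and 12.64 in cerebellum. All tumors were lower for both, and PB11 was the highest tumor.

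Map1lc3b, which encodes the autophagosome protein LC3B, was at 11.47, 11.84 and 12.42 in tumors and at 12.51, 12.43 and 12.45 in cerebellum, so that the highest tumor, PB11, nearly reached cerebellum. Lamp1, the major membrane protein of lysosomes, was at 11.18, 11.31 and 11.82 in tumors and at 11.99, 11.98 and 12.00 in cerebellum. The differences were -1.27 for Sqstm1 (SE 0.17, adjusted p = 5.5e-06), -1.003 for Ctsb (SE 0.15), -0.64 for Map1lc3b (SE 0.14) and -0.61 for Lamp1 (SE 0.12, adjusted p = 0.000294). They were -0.42, -0.32, -0.05 and -0.17 for PB11 alone, none of which was called. After quantile normalization they were -0.996, -0.74, -0.37 and -0.23, and Lamp1 was no longer called (adjusted p = 0.0236). All 4 genes lay above the 75th percentile of the arrays in both groups, and the part of the wider spread of the cerebellum arrays in their differences was not tested.

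Several members of the list kept their direction after quantile normalization and for PB11 alone. Atp6v1g2, the neuronal form of a proton pump subunit, was at 9.40, 9.73 and 10.38 in tumors and 13.15, 13.07 and 13.06 in cerebellum (-3.29, SE 0.16, adjusted p = 2.2e-11), and -2.71 for PB11 alone. The pump subunit genes Atp6v1c1 (-2.18) and Atp6v1e1 (-1.84), the acid glucosidase gene Gaa (-1.70) and the LC3 relative gene Gabarapl1 (-1.91) were lower under all 3 ways of comparison, at -1.12, -0.9985, -0.96 and -1.18 for PB11 alone. Higher members were the protease gene Ctsc, cathepsin C, at 9.66, 9.97 and 10.96 in tumors and 8.16, 8.24 and 8.14 in cerebellum (1.86, SE 0.20), the pump subunit gene Atp6v0d2, best known from osteoclasts and macrophages (2.12), and the vesicle membrane gene Cd63 (0.84, and 1.84 for PB11 alone), whose call was lost without cerebellum 3. Of 17 markers of microglia and macrophages 5 were higher and 5 lower, with C1qb at 10.13 to 11.04 in tumors and 9.75 to 9.98 in cerebellum (0.85). Their part in the lysosome genes was not tested.

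**Figure D4:**
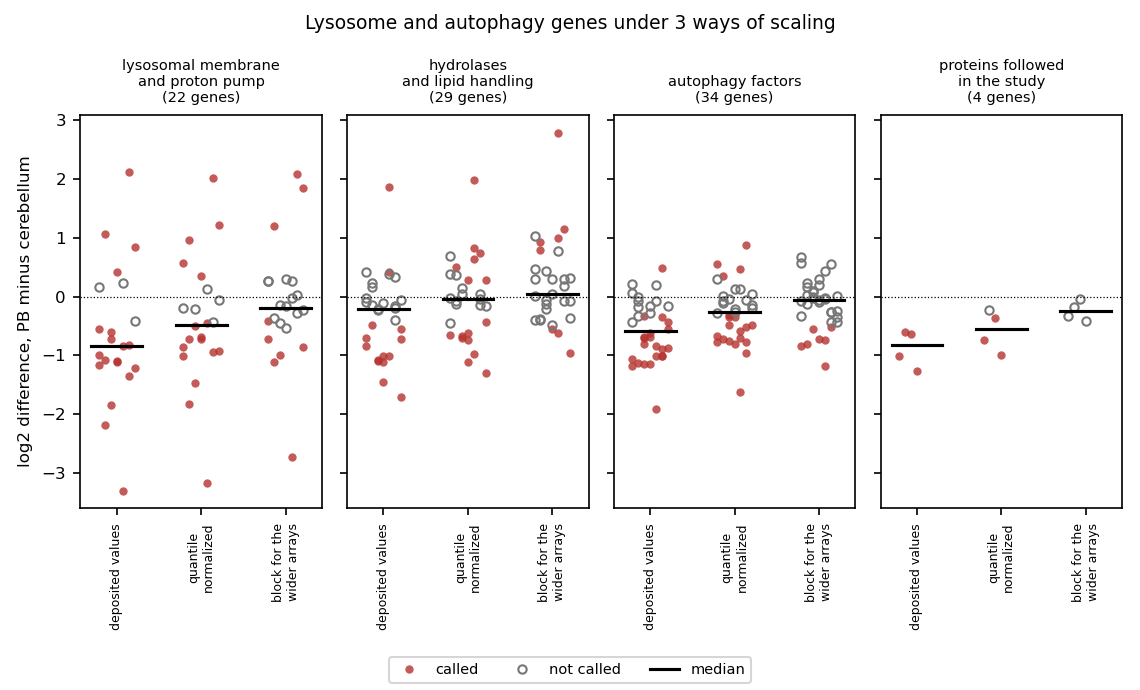
Log2 difference between Rb/p53-deleted PB and cerebellum (vertical axis) of 22 genes of the lysosomal membrane and proton pump, 29 of hydrolases and lipid handling, 34 of autophagy factors and 4 proteins followed in the study, on deposited values, after quantile normalization and with a block that leaves PB11 against cerebellum. Filled points are called genes, open points genes not called and bars medians, and the medians rise from left to right in each panel.

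Sterol genes, which drugs that collect in lysosomes can disturb, were mostly not called. Of 29 genes 3 were higher and 7 lower on deposited values, and 5 and 4 after quantile normalization. On deposited values these were 10.3% and 24.1%, against 19.7% and 31.9% of all genes. Lrp1, a receptor for lipoprotein remnants, was lower by 2.15 and Insig2, which retains the sterol sensor, was lower by 1.02. The transcription factor gene Srebf1 was higher by 0.90 and the farnesyl diphosphate synthase gene Fdps by 0.70.

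Genes of the primary cilium were higher more often than the background. The cilium is the antenna on which hedgehog signals are read, and in photoreceptors and pinealocytes it carries the light-sensing or sensory membrane. Of 50 genes 19 were higher and 6 lower, 31 and 2 after quantile normalization and 26 and 2 for PB11 alone. Cep290, a gatekeeper of the transition zone whose loss blinds, was at 7.99, 8.93 and 9.22 in tumors and at 5.87, 6.05 and 5.91 in cerebellum, higher in all tumors (2.88, SE 0.19, adjusted p = 1.2e-09). Of 16 transition zone genes 8 were higher and none lower, and of 11 BBSome genes 4 were higher and 1 lower. Bbs12, a chaperone of the BBSome, was at 8.43 to 8.89 in tumors and 6.81 to 6.85 in cerebellum (1.79, SE 0.11), and the BBSome subunit gene Ttc8 was higher by 1.54. Kif3a, a motor of ciliary transport that also moves cargo in axons, was at 8.27 to 8.83 in tumors and 9.85 to 10.01 in cerebellum (-1.38, SE 0.10).

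Notch signalling differed by component. Of 12 ligands and receptors 6 were higher and 1 lower (median 0.52). Dll1, a ligand of neural progenitors, was at 9.62, 9.96 and 10.82 in tumors and 7.65, 7.59 and 7.61 in cerebellum, higher in all tumors (2.46, SE 0.20, adjusted p = 1.1e-08). Dlk1, a noncanonical ligand, varied more, from 9.44 to 11.88 in tumors around a median of 10.55, against 8.45, 8.17 and 8.38 in cerebellum (2.37, SE 0.42). Jag1 was higher by 1.55, and Dner, the ligand of Purkinje cells to Bergmann glia, was at 8.27 to 9.93 in tumors and 13.02 to 13.10 in cerebellum (-4.02). Of 20 targets and modulators 5 were higher and 8 lower, among them the direct targets Nrarp, at 9.46, 9.77 and 10.32 in tumors and 7.07, 6.96 and 7.19 in cerebellum (2.76, SE 0.15), and Hes1 (1.91, SE 0.24). The fringe enzyme gene Lfng (-1.47) and the gamma-secretase gene Psen2 (-1.46) were lower. Among 31 genes of progenitors and early neurons, 7 were higher and 12 lower. Over all 63 genes of the list 28.6% were higher and 33.3% lower, against 19.7% and 31.9% of all genes. Insm1, a zinc finger factor of neuroendocrine precursors, was at 10.03, 10.51 and 11.002 in tumors and 7.56, 7.63 and 7.54 in cerebellum (3.00, SE 0.15), and Prom1, which encodes CD133 of stem cells and of photoreceptor disks, was higher by 2.89 (SE 0.18). Myt1l, which keeps neurons neuronal, was lower by 3.15.

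Transcription factors of hindbrain and cerebellum were mostly lower, with 28 of 52 lower and 9 higher (median -0.75). Etv1, of maturing granule neurons, was at 7.27, 7.57 and 8.49 in tumors and 12.59, 12.58 and 12.67 in cerebellum (-4.93, SE 0.18). Tfap2b, of inhibitory interneurons (-3.73), Eomes, of unipolar brush cells (-3.37), and Meis1 (-3.16) were lower. Its relative Meis2 was at 7.75, 8.35 and 9.77 in tumors and 6.49, 6.62 and 7.03 in cerebellum, higher in all tumors though spread widely (1.97, SE 0.40, adjusted p = 0.000398). Zic5, a dorsal midline factor, was high in both groups, at 11.98 to 12.26 in tumors and 11.18 to 11.31 in cerebellum (0.89, and 0.50 as the mean of its transcript clusters). Of nuclear receptors, 9 of 45 (20%) were higher and 17 (37.8%) lower, against 19.7% and 31.9% of all genes. Rxrg, a retinoid receptor of cone photoreceptors, was at 9.84, 10.33 and 11.36 in tumors and 7.04, 6.56 and 6.66 in cerebellum (3.73, SE 0.28, adjusted p = 5.1e-09). Thrb, the thyroid hormone receptor that sets cone identity, ranged from 8.25 to 10.91 in tumors and from 7.56 to 7.85 in cerebellum (2.10, SE 0.41), and Rorb, of retina and pineal gland, was higher by 1.49. The other thyroid receptor gene, Thra, was lower by 1.51.

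Surface and guidance genes differed in both directions within families. Of 77 adhesion genes 13 were higher and 42 lower, and of 60 axon guidance genes 9 were higher and 28 lower. In the immunoglobulin family 20 of 29 were lower and 4 higher (median -1.83). Cntn2, a contactin of granule cell axons, was at 7.29, 7.46 and 7.83 in tumors and 11.40, 11.31 and 11.31 in cerebellum (-3.86, SE 0.10), and Cntn6 (-4.06) and Chl1 (-3.90) were lower. Kirrel, the relative of nephrin, was higher by 2.07 and Sdk1, which sorts retinal synapses into layers, by 1.72. Pcdh18, a protocadherin, was at 10.44, 11.19 and 12.27 in tumors and 7.81, 7.67 and 7.79 in cerebellum, higher in all tumors (3.45, SE 0.28, adjusted p = 1.8e-08), while the cadherin genes Cdh18 (-3.65) and Cdh7 (-3.50) were lower. Among guidance genes, the semaphorin receptor gene Nrp2 was at 10.37, 10.93 and 11.15 in tumors and 8.17, 8.33 and 8.27 in cerebellum, and its ligand gene Sema3f at 10.72, 11.02 and 11.47 in tumors and 8.99, 9.04 and 8.85 in cerebellum. Both were higher in every tumor (2.57, SE 0.14, and 2.09, SE 0.13), whereas Sema7a was lower by 3.28.

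Growth factors and receptor kinases were lower in 39 of 72 cases and higher in 11 (median -0.57), and 27 and 7 for PB11 alone. The neurotrophin receptor genes Ntrk3, at 6.38, 6.83 and 7.46 in tumors and 10.81, 10.84 and 10.82 in cerebellum (-3.88, SE 0.17), and Ntrk2 (-3.47) were lower. Both Kit (-3.82), the receptor of cerebellar interneurons, and Kitl (-3.57), its ligand, were lower. Receptors that were higher were the neuregulin receptor Erbb4, at 9.85, 11.09 and 11.26 in tumors and 9.62, 9.53 and 9.59 in cerebellum (1.39, SE 0.21), Fgfr4 (0.96) and Igf1r (0.72), the latter 2 without a call for PB11 alone (0.78 and 0.54). The ligand gene Hgf was higher by 1.65 and Igfbp3, a binding protein of insulin-like growth factors, by 1.05.

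Genes of cell death, stress and oxygen response had mixed directions. Of 27 genes of the BCL2 family and caspases 9 were higher and 7 lower. Casp8, the initiator caspase of death receptors, was at 9.43, 9.98 and 10.82 in tumors and at 7.66, 7.91 and 7.80 in cerebellum, higher in all tumors (2.24, SE 0.20, adjusted p = 5.8e-08). The BH3-only gene Bcl2l11, which encodes BIM, was higher by 1.02, and Bcl2l2, which encodes the survival protein BCL-W, was lower by 1.05. Of 36 glutathione and redox genes 7 were higher and 18 lower, but 4 were lower for PB11 alone. Gstm1, a glutathione transferase abundant in astrocytes, was at 8.26 to 10.99 in tumors and 12.73 to 12.81 in cerebellum (-3.34, SE 0.39, but -1.77 and not called for PB11 alone), and the peroxiredoxin gene Prdx4 was higher by 1.63. Of 27 hypoxia-response genes 5 (18.5%) were higher and 8 (29.6%) lower, close to the 19.7% and 31.9% of all genes. The carbonic anhydrase gene Car9, a usual marker of hypoxia, was at 6.50 to 7.10 in tumors and 8.43 to 8.72 in cerebellum (-1.83, SE 0.12), the neuronal glucose transporter gene Slc2a3 was lower by 4.81, and the lactate dehydrogenase gene Ldha was higher by 0.76. Of 30 immediate early genes 9 were higher and 7 lower, led by Atf3 (2.24, SE 0.18) and Nr4a3 (-2.55).

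Among the tumors, the 12 genes with the largest SD over PB1 to PB10 included genes of the sex chromosomes. Eif2s3y and Uty, which lie on the Y chromosome, were at 7.12 to 10.16 and 7.75 to 10.53 in PB6 to PB10, and at 4.11 to 4.84 and 4.88 to 5.69 in PB1 to PB5 and PB11. Xist, the RNA of the inactive X chromosome, was at 7.50 to 10.19 in PB6 to PB10 and at 12.95 to 13.32 in the other tumors. The tumors split the same way for all 3 genes, and cerebellum lay with PB1 to PB5 and PB11 (means of 4.29, 4.77 and 12.49). The labels give no sex.

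**Figure D5:**
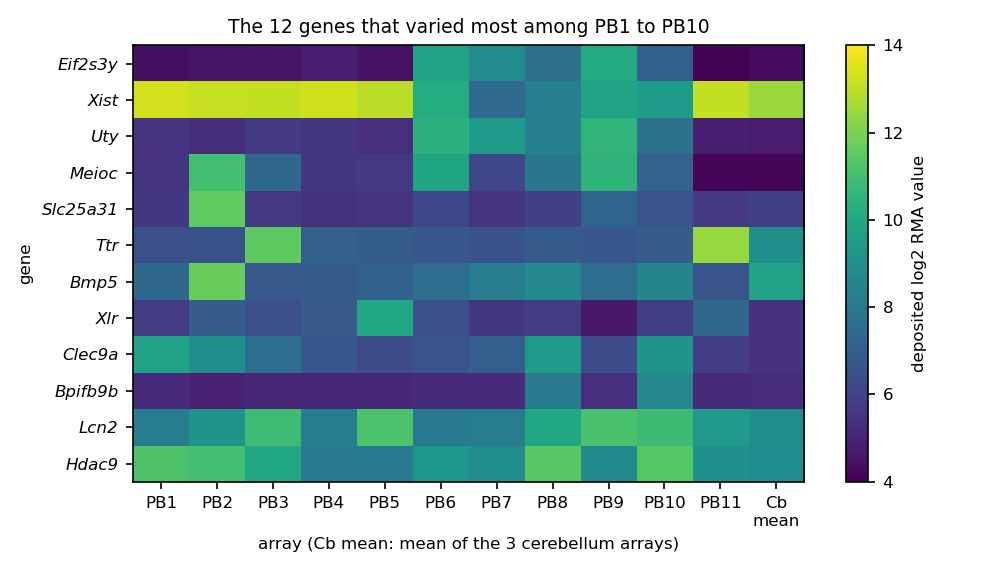
Deposited log2 RMA value (color, from 4 to 14) of the 12 genes with the largest SD over PB1 to PB10 (rows) in each of the 11 tumors and as the mean of the 3 cerebellum samples (columns). Eif2s3y and Uty are high and Xist is low in PB6 to PB10, and Slc25a31 and Bmp5 are high in PB2.

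Other genes were high in 1 or a few tumors. Bmp5, a growth factor gene, was at 11.66 in PB2 and 6.63 to 8.69 in the others. Slc25a31, a nucleotide carrier of germ cell mitochondria, was at 11.56 in PB2 and 5.48 to 7.21 in the others. Meioc, which prolongs meiotic prophase, was at 11.002 in PB2, 10.50 in PB9 and 9.91 in PB6, and at 4.14 to 7.94 in the others. Ttr, the transthyretin gene and a marker of choroid plexus, was at 12.46 in PB11 and 11.51 in PB3, and at 6.43 to 7.08 in the others. Clec9a, a receptor of dendritic cells, was at 9.78 in PB1, 9.47 in PB8, 9.16 in PB10 and 8.91 in PB2. Bpifb9b was at 8.16 and 8.70 in PB8 and PB10 and at 4.97 to 5.34 elsewhere. Each of these is a value in a single tumor or a few tumors, with no replicate of the tumor.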

How the data were processed

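RNA was extracted with Trizol from tumors and cerebellum. The authors ran RMA in Expression Console (version not given in the sources used here), and the deposited log2 values stand for transcript clusters. No column was left unmapped. Of 35556 clusters 21789 had 1 gene symbol, 1621 several and 12146 none. RefSeq gene identifiers (GRCm38.p6) matched 21698. The cluster with the highest mean stood for each of 998 genes with several.

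The 14 arrays of tumors and cerebellum went into a two-sided limma 3.58.1 fit (R 4.3.3; lmFit, eBayes), with Benjamini-Hochberg adjustment over 19939 genes at 0.01. The fit was tested on simulated data. Nothing says that the cerebellum samples came from separate mice, so p-values measure the spread between samples. The SD of the difference between 2 arrays across genes was 0.209 to 0.579 in tumors and 0.163 to 0.202 in cerebellum, and no arrays were identical. Array number limits the precision.

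Members and the 31 function lists were chosen with earlier results of these data known. Named genes are those with the 12 largest differences in each direction with no overlap, up to 3 per direction and role in each list, the drug and lysosome genes the study turns on, the 12 most variable among PB1 to PB10, and the 2 highest markers per cell type. Predicted genes and photoreceptor, pineal, mitotic, marker and classifier genes were left out of the first. Cplx1, Cplx2, Syp, Snap25, Cacna2d4, Unc13b, Stx3 and Ctbp2 were added after their values were seen, as were the germline list and quantile normalization without PB11. Alternatives were quantile normalization, centring on each array's median, a block for the 4 wider arrays (which leaves PB11 against cerebellum), a replicate block, a filter on dim genes, cluster means, a trended prior, all 19 arrays and leaving out each array. Replicate numbers paired nothing (r = -0.05, -0.02 and -0.04).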

Additional observations from a re-analysis of the deposited data

How the results depend on the processing

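In the comparison of tumors with cerebellum, 3936 genes were higher and 6357 lower. Leaving out 1 array at a time gave 3021 to 4898 higher and 5388 to 7329 lower, with the highest counts without PB11 and the lowest without cerebellum 1. The counts fell to 2617 higher and 5604 lower when dim genes were left out, where fewer genes are tested, and to 1482 and 2911 when a log2 difference of at least 1 was also asked for. With a block for the 4 arrays of wider spread, which leaves PB11 as the only tumor against cerebellum, 3381 were higher and 3183 lower, and the lone tumor is assumed to vary like the other arrays. Quantile normalization gave 4985 higher and 5512 lower, and with PB11 also left out, chosen after seeing the data, 5681 and 5954. With replicate numbers as a block the counts were 3277 and 5822, but the numbers do not pair the samples (r = -0.05, -0.02 and -0.04) and PB4 to PB11 have no partner. Of 216 called genes given here with a value, 190 were called in every setting. Among them the block for wider arrays ended the call of 20 with the same sign and turned Nme1 to 0.26, the replicate block ended 5 calls and quantile normalization 2. Of 2 genes not called on the deposited values, Mdm4 was at -0.0102 with the replicate block, and Rb1 was at 0.33 after quantile normalization and 0.40 with PB11 also left out. The naming rule picked 425 genes, not all of them printed, and of the 384 called the sign turned for 15 with the block for wider arrays, none of which was then called, for 1 after quantile normalization and for 0 without PB11. The cause was not tested. The number of arrays limits the precision.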

Other observations

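Genes of the germ line and meiosis, a list of 74 symbols put together after Obox6, Stag3 and Dmrtb1 were seen among the leading genes, were mostly low. Of 69 measured, 48 were below 8 in every array, 19 were higher in tumors, 5 were lower and 45 were not called (median difference 0.12), against 19.7% higher and 31.9% lower among all genes. The 19 include the 3 genes that prompted the list. Besides the leading genes, Syce2 (2.14), of the synaptonemal complex, Boll (2.06), an RNA-binding protein of germ cells, Terb1 (2.02), which ties telomeres to the nuclear envelope in meiosis, and the helicase gene Hfm1 (1.92, but 0.45 and not called for PB11 alone) were higher, and the meiotic cohesin gene Rec8 (-2.13), partner of STAG3 in germ cells, was lower. After quantile normalization 18 of the 69 were higher and 8 lower, against 25.0% and 27.6% of all genes. The share higher was then close to that of all genes.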
